A study of Mus musculus with 13 samples.

Results

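Neat1 and Malat1 are neighbouring genes on mouse chromosome 19 that are transcribed into long noncoding RNAs. The locus was taken as chr19:5760000-5900000 on mm9, and it was chosen from earlier results of these lists, in which a window around these genes stood among those richest in Sox9 peaks. All peaks of 4 deposited lists with their centre in these 140 kb are the members. They comprise 26 of the 27656 rib peaks and 28 of the 17440 nasal peaks. The 26 rib peaks divide into 9 of the 6794 Class I peaks and 17 of the 20862 Class II peaks, so each rib peak stands in the whole list and in 1 class list. The numbers of peaks were part of what selected the locus, so they are given as a description, without a test.

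Sox9 occupancy was profiled by ChIP-seq in untreated, enzyme-digested chondrocytes of wild-type ICR mice. The rib group came from the rib at postnatal day 1, and the nasal group from the nasal septum at embryonic day 17.5. Each group is 1 library made with the same Sox9 antibody, so tissue and stage cannot be told apart and no replicate check was possible. The lists hold positions without heights, and the read depth behind a peak is unknown. RNA levels were not analysed here, so neither the identity of the cells nor the amount of Neat1 or Malat1 RNA was checked.

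Sox9 is an HMG-box transcription factor without which cartilage does not form, and it activates genes of the cartilage matrix. Neat1 RNA is the scaffold of paraspeckles, which are nuclear bodies that retain certain proteins and RNAs. A short and a long Neat1 transcript begin at the same 5′ end, and only the long form can build these bodies. Malat1 RNA is abundant in most cells and gathers at nuclear speckles, where splicing factors are stored. In mouse both genes are read towards lower positions, so Neat1 lies upstream of Malat1. On mm9 Neat1 spans about 5824700 to 5845500 and Malat1 about 5795700 to 5802700, with 22 kb between them, and these ends are rounded to 100 bp. In the RefSeq order of GRCm38.p6 the next genes upstream of Neat1 are Frmd8, Slc25a45 and Tigd3. Mascrna, a small RNA cut from the 3′ end of the Malat1 transcript, is listed within the same stretch. The peaks were not assigned to these other genes, since that table is on another build.

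A rib and a nasal peak both contained the stated 5′ end of Malat1, and the promoter sequence of this gene is therefore shown. It is the RefSeq stretch chr19:5802623-5802922 of GRCm38.p6, minus strand, from 250 bases before the annotated start to 50 after it, with the transcribed bases in capitals.
Malat1: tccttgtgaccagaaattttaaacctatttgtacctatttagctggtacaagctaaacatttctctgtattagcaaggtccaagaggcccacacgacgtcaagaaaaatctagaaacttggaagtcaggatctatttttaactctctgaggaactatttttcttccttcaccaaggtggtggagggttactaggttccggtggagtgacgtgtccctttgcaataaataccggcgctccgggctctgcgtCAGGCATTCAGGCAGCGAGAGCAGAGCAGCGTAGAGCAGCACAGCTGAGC
Its GC content was 47.0%, against a median of 52.7% over 32851 promoters of the same length. SOX-type letters were searched on both strands. ACAAT had 0 matches here and occurred in 31.0% of all promoters. ACAAAG had 0 matches and occurred in 18.7%, and ACAA facing TTGT with 3 to 5 bases between them had 0 matches and occurred in 1.22%. A match of the last pattern can overlap a match of either of the others. This says only that these letters are not in this window.

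The locus peak that came first in each list was at the same site, just before Neat1. What the order stands for is not stated in any source used, and place is therefore given as a percentage of the list, with a small value near its top. At chr19:5846750-5846903, 1.25 kb before the 5′ end of Neat1, a Class I rib peak held place 429, or 1.55% of the rib list. The nasal peak at chr19:5846731-5846903 held place 392, or 2.25% of the nasal list, and shared 154 bp with it. Each was the first locus peak of its list, and the rib peak lay wholly within the nasal one.

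Peaks beside the 5′ end of Neat1 came next in both tissues. A Class I rib peak of 32 bp at chr19:5845562-5845593 held place 1133, or 4.10%, and a nasal peak of 74 bp at chr19:5845509-5845582 held place 575, or 3.30%. They shared 21 bp, and their near edges lay 62 bp and 9 bp before the stated 5′ end. If that end is rounded to the nearest 100 bp, the nasal distance lies within the rounding and the rib distance does not. Neither narrow peak contained the stated 5′ end, where the short and the long Neat1 transcripts begin. Whether the nasal peak reaches the true start cannot be told at this rounding. For the rib peak this depends on how the end was rounded, which is not stated.

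**Figure D1:**
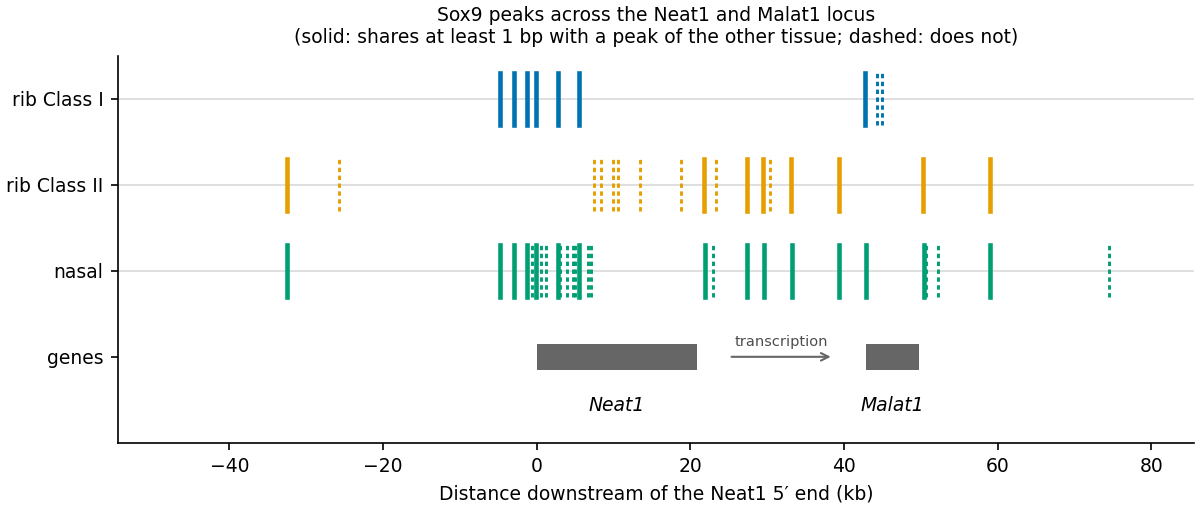
Peaks of rib Class I, rib Class II and the nasal list (1 vertical line per peak centre) by distance downstream of the Neat1 5′ end in kb, negative values being upstream, with Neat1 and Malat1 as grey bars. Solid lines share at least 1 bp with a peak of the other tissue and dashed lines do not: the 6 Class I peaks at and before Neat1 are all solid, and the 6 Class II peaks in Neat1 are all dashed.

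Class I peaks clustered around the 5′ end of Neat1. Besides the pair of sites above, 4 more Class I peaks lay in or before Neat1, and the 6 together spanned 10.5 kb. Inside the gene, the peak at chr19:5842683-5842855 stood at 7.37% of the rib list and its nasal partner at 27.6% of the nasal list, with 147 bp shared. Further inside, chr19:5839870-5840118 stood at 11.3% and its nasal partner at 23.5%, with 220 bp shared. Both sites thus came earlier in the rib list than in the nasal list, and no tissue difference is read from this.

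Before the gene, 2 more Class I peaks extended the group. The rib peak at chr19:5848394-5848549 stood at 10.2% and its nasal partner at 58.8%, whereas the rib peak at chr19:5850111-5850375 stood at 42.6% and its partner at 32.6%. All 6 Class I peaks shared bases with a nasal peak, where 68.8% of all Class I peaks did. Over the whole locus 7 of 9 Class I peaks did, and the 2 without a partner lay in the Malat1 body. With so few peaks, nothing is read from this difference. None of the 6 came later than 42.6% of the rib list.

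Inside Neat1, beyond these shared sites, rib and nasal peaks lay in different stretches of the gene. The body of Neat1 held 8 rib peaks and 10 nasal peaks, and 2 of each overlapped. The shares overlapped over the whole lists were 42.8% for rib peaks, 34.4% for Class II alone and 68.2% for nasal peaks, so most Class II peaks had no nasal partner anywhere. The 6 other rib peaks were all Class II, with centres from 7.42 kb to 18.7 kb downstream of the 5′ end. The 8 other nasal peaks had centres from 0.521 kb to 7.03 kb downstream. These ranges did not overlap, and this split was noticed in the data and not tested.

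The unshared rib peaks of Neat1 mostly stood late in their list. The 3 farthest from the 5′ end had centres 10.5, 13.4 and 18.7 kb downstream. They stood at 86.9%, 86.9% and 87.2% of the rib list. A Class I peak in the Malat1 body stood at 87.1%, so these close places are not particular to Neat1. The peak at chr19:5835296-5835776, the widest rib peak of the locus with 481 bp, stood at 64.0%. The peak at chr19:5837943-5838217 stood at 60.3%, with the nearest nasal peak 191 bp away. The exception was chr19:5837005-5837316 at 32.0%, the earliest unshared rib peak of the locus, 1.09 kb from the nearest nasal peak. The farthest of the 6, at chr19:5826775-5826779, was 5 bp wide, so its position is that of a very short call.

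The unshared nasal peaks of Neat1 were packed between and around the shared sites. The earliest, chr19:5840412-5840584, stood at 33.1% of the nasal list, and the latest, chr19:5844155-5844578, at 90.1%. The peak at chr19:5840412-5840584 shared bases with the nasal peak chr19:5840544-5840974, so the pair forms 1 continuous stretch. Another, at chr19:5841571-5841584, was 14 bp wide and stood at 35.3%. The 2 peaks nearest the 5′ end, with centres 0.521 and 1.13 kb into the gene, stood at 85.7% and 90.1%. Of these 8 peaks, 7 had a rib peak within 1 kb, where 31.0% of all unshared nasal peaks had one. The locus was selected for its many peaks, which brings neighbours close, so nothing is read from this count.

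**Figure D2:**
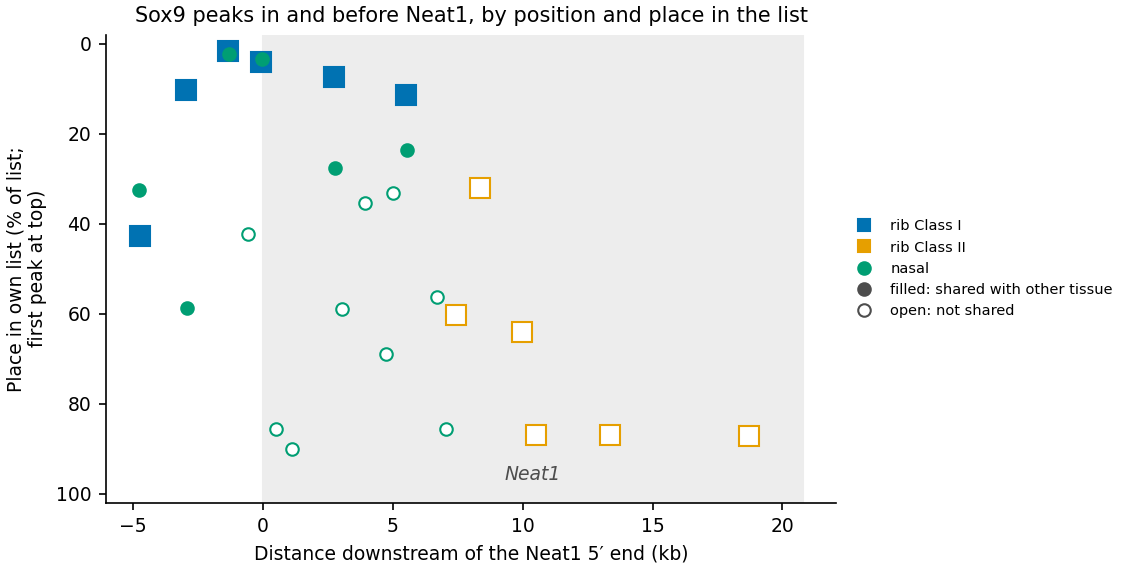
Place of each peak in its own list, as a percentage with the top of the list at the top, against distance downstream of the Neat1 5′ end in kb. Squares are rib peaks, circles nasal peaks, filled symbols shared and open symbols unshared; shared Class I squares lie at 1.55% to 42.6%, open nasal circles end at 7.03 kb and open Class II squares begin at 7.42 kb within the shaded gene.

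The rib and nasal lists also differed in the density of peaks along Neat1. The 10.4 kb nearer the 5′ end held 5 rib peaks, or 4.81 per 10 kb, and 10 nasal peaks, or 9.62 per 10 kb. The 10.4 kb nearer the 3′ end held 3 rib peaks, or 2.88 per 10 kb, and no nasal peak. The long Neat1 transcript alone covers that 3′ stretch. Its 3 rib peaks stood at 86.9% to 87.2% of the rib list, which is the longer list. Of these peaks, 1 was 5 bp wide, and 1 had its centre at 10.5 kb, just past the split at 10.4 kb. The split was chosen after the data were seen. With 1 library per tissue and unknown depth, no tissue difference is read from these counts. Over the whole gene the widths of single peaks summed to 1869 bp in rib and 2250 bp in nasal chondrocytes. Bases shared by the overlapping nasal peaks described above enter the nasal sum once for each peak.

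At Malat1, Sox9 peaks in both tissues contained the stated 5′ end, and further rib peaks lay inside the gene. The Class I peak at chr19:5802659-5802796 stood at 25.9% of the rib list, and the nasal peak at chr19:5802637-5802769 at 9.76% of the nasal list. They shared 111 bp, and their centres lay 24.5 bp apart. The site at the Malat1 5′ end thus came earlier in the nasal list than in the rib list, and no tissue difference is read from this. Within the 7 kb of the body, Class I peaks at chr19:5800977-5801384 and chr19:5800507-5800533 stood at 73.2% and 87.1% of the rib list. They lay 1.32 kb and 2.17 kb downstream of the 5′ end, and the smaller was 27 bp wide. No nasal peak had its centre in the body of Malat1, although the one at the 5′ end reached into it. Its centre lay 0.003 kb before the stated end, well within the rounding of that end. The 2 rib peaks inside the gene were the Class I peaks of the locus without a nasal partner, 2 of 9, and of all Class I peaks 68.8% had one.

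**Figure D3:**
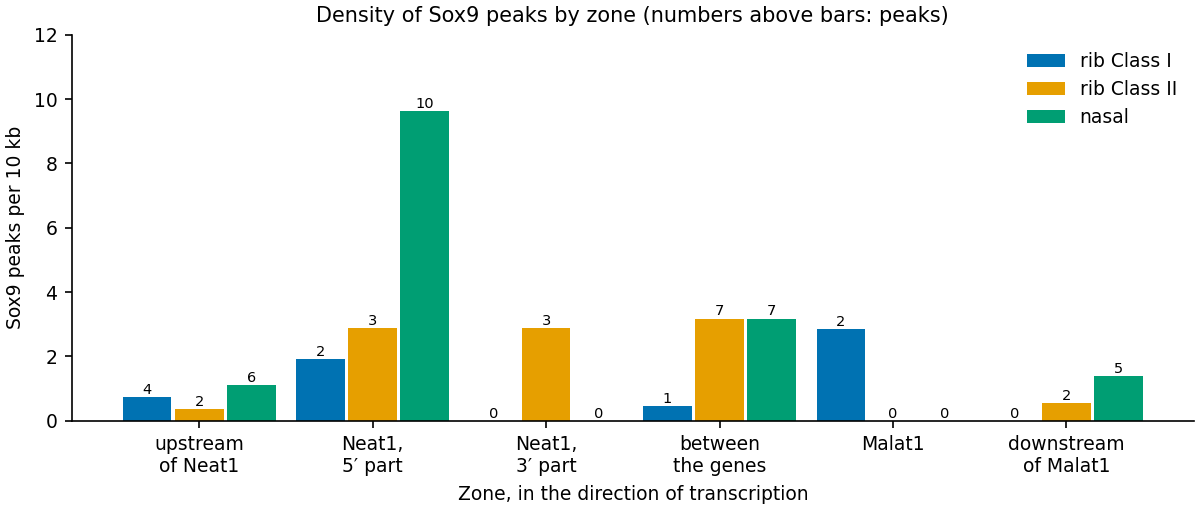
Peaks per 10 kb in 6 zones of the locus, in the direction of transcription, with the number of peaks above each bar, for rib Class I, rib Class II and nasal peaks. The nasal bar of the 5′ part of Neat1 is the tallest at 9.62, Class II alone fills the 3′ part, and by peak centres Class I alone fills Malat1; peaks at a 5′ end whose centre lies before it count in the zone before the gene.

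Between the genes, rib and nasal peaks were similar in number. In these 22 kb 8 rib and 7 nasal peaks were listed. Among the rib peaks 7 belonged to Class II, and the other was the Class I peak at the Malat1 5′ end. Nasal peaks overlapped 6 of the 8 rib peaks, and rib peaks overlapped 6 of the 7 nasal peaks, where the whole lists had 42.8% and 68.2%. Of the 7 Class II peaks 5 were overlapped, where all Class II peaks had 34.4%. With so few peaks, nothing is read from these differences. Rib places ran from 19.7% to 47.2%, so none of these stood late in the list.

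Single sites between the genes stood at different places in the rib and nasal lists. With 1 library per tissue and an unexplained list order, no tissue difference is read from these places. The rib peak at chr19:5816044-5816091, 48 bp wide, stood at 27% of its list, and the nasal peak at chr19:5815798-5816056, 259 bp wide, at 5.44%. They shared only 13 bp, with centres 140.5 bp apart, the widest offset of any pair at the locus. The reverse order was found closer to Malat1, where the rib peak at chr19:5805948-5806294 stood at 19.7%, and its nasal partner at 75.3%, although 223 bp were shared, the most of any pair. At chr19:5818026-5818205 the places were 22.6% in rib and 15.0% in nasal chondrocytes, with centres 5 bp apart. That pair had the closest centres of the locus, and the rib peak lay wholly within the nasal peak.

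The unshared peaks between the genes lay close to peaks of the other tissue. The rib peak at chr19:5822008-5822445, at 42.6%, and the nasal peak at chr19:5822520-5822723, at 58.9%, were 74 bp apart without a shared base. The rib peak at chr19:5815083-5815255, at 46.9%, had its nearest nasal peak 542 bp away. Over the whole lists, 12.4% of unshared rib and 31.0% of unshared nasal peaks had a peak of the other tissue within 1 kb. These peaks are few, and the locus was selected for its many peaks, so nothing is read from these distances.

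The flanks were sparser. In the 35.7 kb downstream of Malat1 there were 2 rib peaks, both Class II, at 58.2% and 64.6%, and 5 nasal peaks at 28.5% to 75.3%. Both rib peaks and 2 of the 5 nasal peaks were overlapped, where the shares over the lists were 34.4% for Class II and 68.2% for nasal peaks. The earliest of the 3 unshared nasal peaks, chr19:5793194-5793312, lay 1.89 kb from the nearest rib peak. Upstream of Neat1, beyond the Class I group, a Class II peak at chr19:5877899-5878086 stood at 5.93% of the rib list and its nasal partner at 24.3%, with 135 bp shared. It was the third locus peak in the rib list and the earliest Class II peak. Another Class II peak, chr19:5871135-5871361, stood at 64.0% and had no nasal peak within 6.59 kb. The rib peak next outside the bounds lay 10.3 kb below the lower bound, and that of the nasal list 13.0 kb above the upper bound. Inside, the nearest to a bound were a rib peak at 22.0 kb from the upper one and a nasal peak at 11.0 kb from the lower one.

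Over the whole locus, nasal peaks overlapped 15 of the 26 rib peaks, or 57.7% (95% exact binomial interval 36.9% to 76.6%). The share over the whole rib list was 42.8%. Rib peaks overlapped 15 of the 28 nasal peaks, or 53.6% (33.9% to 72.5%), against 68.2% over the whole nasal list. For sharing of at least 1 bp, the rib share at the locus was thus above that of its list and the nasal share below. Both list values lay within the intervals. Neighbouring peaks are not independent, so the intervals cover counting error alone and are too narrow.

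By class, 7 of the 9 Class I peaks were overlapped, or 77.8% (40.0% to 97.2%), where the list had 68.8%. Of the 17 Class II peaks 8 were overlapped, or 47.1% (23.0% to 72.2%), where the list had 34.4%. Class I made up 34.6% of the rib peaks here (17.2% to 55.7%) and 24.6% of the rib list. Each list value again lay within the interval of the locus. Of the 11 unshared rib peaks, 3 had a nasal peak within 1 kb, where 12.4% of all unshared rib peaks did. Of the 13 unshared nasal peaks, 10 had a rib peak within 1 kb, where 31.0% of all unshared nasal peaks did. The locus was selected for its many peaks, which brings neighbours close, so nothing is read from these counts.

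**Figure D4:**
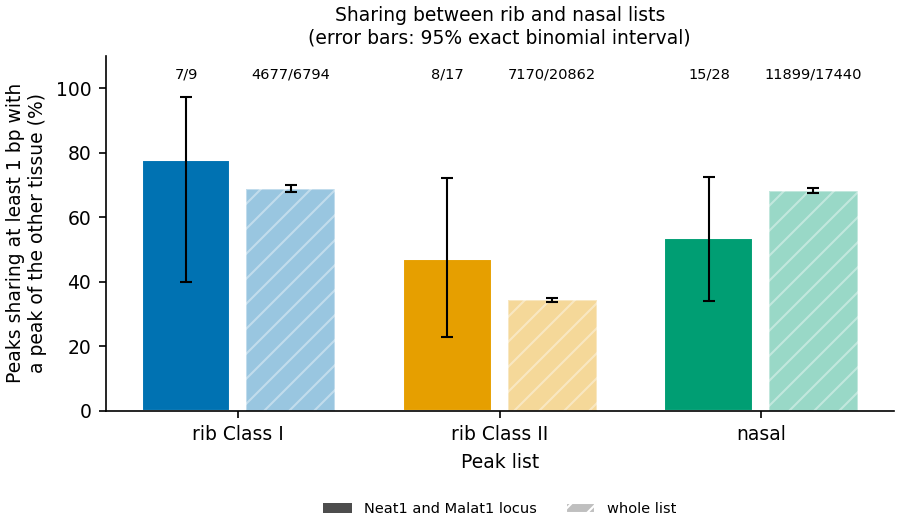
Percentage of peaks that share at least 1 bp with a peak of the other tissue, for rib Class I, rib Class II and nasal peaks, at the locus (solid) and in the whole list (hatched), with counts above and 95% exact binomial intervals as error bars. The locus bars stand at 77.8%, 47.1% and 53.6%, and each interval contains the value of the whole list.

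Shared peaks stood earlier in their lists than unshared ones, at the locus as in the lists as a whole. The median place was 22.6% for the 15 shared and 64.0% for the 11 unshared rib peaks, and 27.6% for the 15 shared and 59.0% for the 13 unshared nasal peaks. Over the whole lists these medians were 33.6% and 60.3% in rib, and 40.0% and 69.4% in nasal chondrocytes. The Class I peaks of the locus had a median place of 11.3%, against 61.4% for all Class I peaks. For Class II peaks the medians were 47.2% at the locus and 45.7% over all Class II peaks. The difference for Class I was not tested, since neighbouring peaks are not independent.

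Across the 15 pairs of overlapping peaks, the places in both lists had a Spearman correlation of 0.518, and over the 12040 pairs of the whole lists it was 0.384. The pairs share the locus and the pair of libraries, so the value is a description. In 10 pairs both peaks stood in the first 50% of their list. Centres lay a median of 33.0 bp apart, against 36 bp over all pairs.

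**Figure D5:**
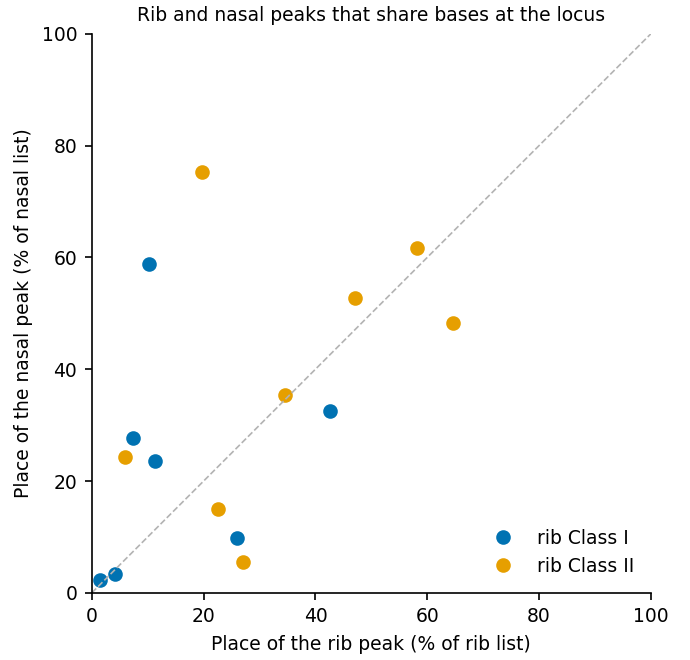
Place of the nasal peak against place of the rib peak, each as a percentage of its list, for the 15 pairs of overlapping peaks at the locus, coloured by rib class, with the line of equal places. The pair of sites at and just before the Neat1 5′ end sits in the lower left corner, and the 2 points farthest above the line, at nasal places of 75.3% and 58.8%, are a Class II and a Class I site.

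Peak widths at the locus were close to those of the lists, apart from a few very narrow peaks. The median was 176.5 bp in rib, against 180.0 bp in the rib list, and 199.5 bp in nasal chondrocytes, against 182.0 bp in the nasal list. Peaks narrower than 50 bp numbered 4 of 26 in rib, or 15.4% (4.36% to 34.9%), where the rib list had 3.10%. This list value lay below the interval, which is too narrow because neighbouring peaks are not independent, and the difference was not tested. They numbered 1 of 28 in nasal chondrocytes, or 3.57%, where the nasal list had 2.90%. The 4 narrow rib peaks lay beside the Neat1 5′ end, in the Neat1 body, in the Malat1 body and between the genes. What makes a peak narrow was not tested.

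Closely spaced peaks formed long runs at the locus. Runs were built by joining peaks of 1 list that lay at most 10 kb apart. The locus was chosen for its many peaks, and the runs were chosen after the data were seen. Ranks of its runs by number of peaks therefore partly repeat that choice and are a description. In rib, 24 of the 26 peaks formed 1 run of 63.9 kb from 5786459 to 5850375, which covers both genes, and 2 of the 18383 runs of the list, this one included, held as many peaks. In nasal chondrocytes the peaks at and before Neat1 formed a run of 15 within 11.9 kb, which held the most peaks of all 12772 runs in the list and was alone at that size. A second nasal run of 11 peaks covered Malat1 and the stretch between the genes. The lack of nasal peaks in the 3′ part of Neat1 separated these runs.

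The counts of the locus were high in both lists. Among 9339 other windows of 140 kb with at least 1 peak, 2 held 26 or more rib peaks, and the fullest held 33. None held 28 nasal peaks, and the fullest held 17. The locus was drawn around its peaks and the windows lay on a fixed grid, so this comparison favours the locus. The 3 windows most like it in the numbers of Class I, Class II and nasal peaks still differed by 20 or 21 peaks in sum. The nearest, chr8:129080001-129220000, had 2 Class I, 18 Class II and 16 nasal peaks. Next came chr15:59360001-59500000 with 3, 20 and 16, and chr15:97720001-97860000 with 11, 22 and 14. At the locus itself the numbers were 9, 17 and 28. Nasal peaks overlapped 57.7% of the rib peaks at the locus, and 70.0%, 69.6% and 39.4% in these 3 windows. Rib peaks overlapped 53.6% of the nasal peaks at the locus, and 87.5%, 100% and 85.7% in the windows. The input and IgG libraries were not analysed here, so whether they hold signal at Neat1 and Malat1 was not tested.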

How the data were processed

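The authors deposited Sox9 peaks as chromosome, start and end, with no other value, on mm9 per the submitters' processing notes. The list names carry FDR and the number 1 without a unit. Aligner, peak caller, control and the meaning of the classes are not stated in these sources. Chromatin of 20000000 cells per immunoprecipitation was cut to 100 to 600 bp and amplified by 18 PCR cycles, per the labels' protocols. Starts were raised by 1 so that positions count from 1. A peak belonged to the locus by its centre, and peaks overlapped when they shared at least 1 bp. The locus, the gene ends and the questions asked were chosen with earlier results of these data known, so no test was made. Every locus peak counted, and the text names Neat1, Malat1, the 3 genes next to Neat1 (those beyond Malat1 are not reported here) and the 3 most similar windows by a rule written into the plan. The split of Neat1 at its middle, the runs and the place medians were chosen after the data were seen. Promoters came from RefSeq, which matched Malat1. Overlap was checked against bedtools 2.31.1. Intervals came from scipy 1.17.1, and numpy 2.4.6, pandas 2.3.3 and matplotlib 3.10.9 ran under Python 3.11.15. The other 11 of 13 libraries were not used here.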

Additional observations from a re-analysis of the deposited data

How the results depend on the processing

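Of 16 other settings, 13 left their value within 1.5 times the count or within its interval. Taking the first 50% of each list by place left 16 rib and 15 nasal peaks at the locus, since fewer peaks enter. Counting peaks with edges up to 1 kb apart as shared gave 69.2% of rib peaks and 89.3% of nasal peaks. Requiring at least 50% of both peaks to be shared gave 42.3% of rib and 39.3% of nasal peaks. Whole-list shares at either setting are not given, so these values cannot be set against the lists. The list shares would rise at the 1 kb setting too. Over the whole lists, 12.4% of unshared rib and 31.0% of unshared nasal peaks had a peak of the other tissue within 1 kb. Whether the locus stands above or below its lists was thus described for sharing of at least 1 bp alone. Widening the bounds by 20 kb on each side gave 29 rib and 30 nasal peaks. Moving the gene ends outward by 1 kb put 50.0% of rib and 53.6% of nasal peaks in a gene, against 38.5% and 35.7%. The grid of windows moved by 70 kb named other windows, the nearest at chr2:32690001-32830000. This setting counts among the 13 only because its nearest window differed by 19 peaks in sum, against 20 before. Which windows are most like the locus thus depended on the grid. No paired analysis was possible because each tissue has 1 library. The depth of the libraries is unknown.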
